A study of Mus musculus with 13 samples.

Results

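The nuclear genes that encode subunits of the mitochondrial respiratory chain and ATP synthase were followed across 13 RNA libraries of cells sorted from mice that carried an implant in the tibia. The members were every gene of the count table whose mouse symbol begins with Nduf and a subunit letter and number, with Uqcr, with Cox4 to Cox8 or with Atp5, or is Sdha, Sdhb, Sdhc or Sdhd, leaving out symbols that end in -ps. This gave 85 of the 23211 genes in the table: 40 of complex I, 4 of complex II, 8 of complex III, 17 of complex IV and 16 of complex V. The rule used symbols only and no measured value, but it was set with earlier results of these data known. Of the 85, 81 are annotated as protein coding, and Ndufa11b, Ndufb4c, Ndufs6b and Cox6c2 are copies of other members. Of the 85, 30 overlap another gene of the table, and since the sources used here do not say whether counting used strand, reads of such neighbours cannot be told apart. Subunits encoded in mitochondrial DNA are not analysed here.

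By their labels, all 13 libraries hold polyA RNA of lineage-negative, leptin receptor positive (LepR+) mouse cells. The fibrous group has 7 libraries, from fibrotic tissue around implants labelled PMMA, and the bone group has 6, from bone around implants labelled Pressfit. The series title asks how these sorted cells differ between fibrous tissue and bone at the implant. The sources used here do not give strain, sex, age, genotype, the time after implantation or the animal behind each library, so p-values measure the spread between libraries, which may be technical. The library names carry a further division. The L002 series of names has 9 libraries, of which 3 hold the token Lin (bone 3, bone 4 and fibrous 5), 5 hold the token plus (bone 1, bone 2 and fibrous 2, 3 and 4) and fibrous 1 holds neither. The XY9274 series of names has 4 libraries (bone 5, bone 6, fibrous 6 and fibrous 7). The labels do not say what Lin stands for, and they call the Lin-named libraries LepR+ like the others.

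Complex I (NADH dehydrogenase), complex II (succinate dehydrogenase), complex III (the cytochrome bc1 complex) and complex IV (cytochrome c oxidase) pass electrons from nutrients to oxygen, and complexes I, III and IV pump protons out of the mitochondrial matrix as they do so. Complex V, the ATP synthase, makes ATP as protons flow back. Most subunits are encoded in the nucleus, and several have alternative forms for muscle, testis or low oxygen, such as Cox4i2 in place of Cox4i1 and Ndufa4l2 in place of Ndufa4.

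The promoters of these genes are shown first because the members moved together between libraries, as described below. The factors NRF1, GABP, ERR alpha and YY1 are known to bind promoters of such genes. RefSeq (GRCm38.p6) gave a window of 250 bases before to 50 bases after the start for 66 of the 85 members. The letters searched, on both strands, were GCGCATGCGC for NRF1, CCGGAAGT for GABP, TCAAGGTCA for ERR and AAGATGGC for YY1. The 150 bases before the start are printed for 3 members that each hold a different one of these, in capitals. All 3 were called higher in the Lin-named libraries described below. Any of the 4 sets of letters was in 6 of the 17 windows of members called higher there and in 15 of the 48 windows of members not called, so most members called higher held none.
Ndufa11, NRF1 (chr17:56717612-56717761, plus strand): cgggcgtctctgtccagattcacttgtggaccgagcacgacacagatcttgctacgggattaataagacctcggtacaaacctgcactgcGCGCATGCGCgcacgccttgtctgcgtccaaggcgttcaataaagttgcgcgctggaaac
Uqcrh, GABP (chr4:116075071-116075220, minus strand): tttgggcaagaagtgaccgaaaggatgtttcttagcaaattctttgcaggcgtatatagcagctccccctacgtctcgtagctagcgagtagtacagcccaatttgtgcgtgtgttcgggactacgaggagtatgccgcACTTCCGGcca
Atp5g3, ERR (chr2:73911327-73911476, minus strand): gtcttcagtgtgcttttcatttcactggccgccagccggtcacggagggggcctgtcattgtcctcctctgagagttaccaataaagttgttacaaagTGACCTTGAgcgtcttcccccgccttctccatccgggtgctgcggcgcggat
The NRF1 letters were in 5 of the 66 member windows (7.58%) and in 1.32% of the 17492 windows of all protein-coding genes. The ERR letters were in 2 (3.03%, against 0.332%) and the GABP letters in 5 (7.58%, against 5.29%). None of the 66 windows held more than 1 of the 4 sets of letters. The absence of exact letters from a window says nothing about the factor.

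The YY1 letters were the most frequent, in 9 of the 66 windows (13.6%, against 3.22% of all windows), and 7 of the 9 were complex I genes. In 8 members they lay within the first 50 transcribed bases on the gene's own strand (12.1%, against 1.37% of all windows). The letters hold ATG, and whether these sites are start codons was not examined. The sites of these 8 members are shown with the YY1 letters in capitals, since these letters were the most frequent.
Ndufa3 (chr7:3617387-3617410, plus strand): ccaagaacAAGATGGCcgggagta
Ndufa9 (chr6:126849100-126849123, minus strand): tgtgggagAAGATGGCggccgccg
Ndufb8 (chr19:44555393-44555412, minus strand): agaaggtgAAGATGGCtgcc
Ndufc1 (chr3:51408918-51408941, minus strand): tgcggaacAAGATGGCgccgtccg
Ndufs4 (chr13:114388045-114388067, minus strand): cctacaggAAGATGGCggcggtc
Ndufs6 (chr13:73328434-73328457, minus strand): tcaccggcAAGATGGCggcggtgc
Ndufs7 (chr10:80249465-80249488, plus strand): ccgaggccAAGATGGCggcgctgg
Atp5j2 (chr5:145191503-145191526, minus strand): aggacttcAAGATGGCgtcactcg
Of these 8, Ndufs6 alone passed the test between the Lin-named and plus-named libraries described below.

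Totals ran from 16162321 to 44302166 counts per library and 14644 to 20146 genes had at least 1 count. Haemoglobin genes took from 0.128% of the counts in bone 5 to 35.3% in bone 4. Markers of LepR+ stromal cells (Lepr, Cxcl12, Kitl, Adipoq, Ebf3, Pdgfra, Pdgfrb and Foxc1) summed to 14.2 to 24.7 normalised CPM (counts divided by library size, scaled with edgeR's TMM factors) in the 3 Lin-named libraries, 34.3 in bone 5 and 47.3 in fibrous 1, and to between 573 and 10757 in the other 8. By these markers the labelled cell type was scarce in those 5 libraries. A difference between such bulk libraries cannot tell fewer cells of a type from less RNA per cell.

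Members took 1.36% of all counts in bone 5, the lowest share, and 2.74% in bone 3, the highest. Complex V genes had the highest summed level in every library and complex II genes the lowest. The summed level of all 85 members, in normalised CPM, was 16558, 24406, 37217, 39866, 12621 and 21340.5 in bone 1 to 6. It was 21410.4, 18264, 19899, 22965, 27951, 15384 and 15120.1 in fibrous 1 to 7. The 3 Lin-named libraries, bone 3, bone 4 and fibrous 5, were the 3 highest, and bone 5 was the lowest. The highest library exceeded the lowest by 3.69 times for complex IV and by 1.86 times for complex II, the complex with the narrowest range.

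**Figure D1:**
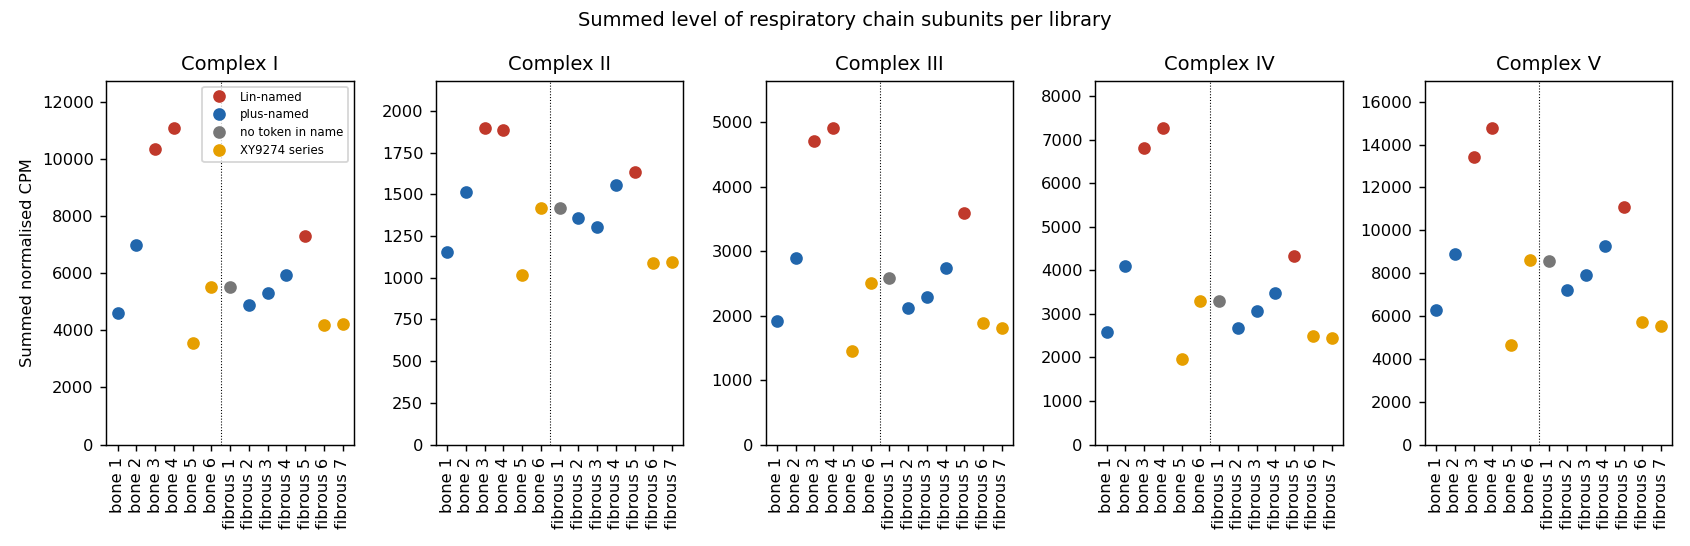
Summed normalised CPM (vertical axes, from 0) of the members of complexes I to V in each of the 13 libraries, coloured by library name. The Lin-named libraries bone 3, bone 4 and fibrous 5 are the 3 highest for complexes I to V, and bone 5 is the lowest for each of the 5 complexes.

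Per kilobase of exon, members of a complex were far from equal in level. The exon lengths pool all transcripts of a gene, retained introns included, so these levels are approximate. The highest was Cox6a1, a ubiquitous small subunit of cytochrome c oxidase, at a mean of 1101 normalised CPM per kb over the 13 libraries. Atp5b, the catalytic beta subunit of ATP synthase, followed at 777. In complexes I, II and III the highest were Ndufa1 at 363, the membrane anchor Sdhd at 363 and Uqcr11 at 462 normalised CPM per kb. Among the 82 members that passed the filter on low counts over all 13 libraries, the lowest in complexes I, II, III, IV and V were the copy Ndufb4c at 1.42, Sdhc at 54.2, the core protein Uqcrc2 at 88.8, the muscle form Cox7a1 at 0.678 and Atp5l at 1.83 normalised CPM per kb. Atp5l encodes a membrane subunit of ATP synthase with near-identical copies elsewhere in the genome, so how its reads were assigned is uncertain.

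The libraries ranked alike for most members. Of these 82 members, 75 were highest in bone 3 or bone 4 and 57 were lowest in bone 5. The 3 Lin-named libraries were the 3 highest of the 13 for 51 of the 82. Each member's level was set relative to its own mean, and the median of these log2 ratios over the 82 members was taken for each library. It was 0.99 in bone 4, 0.91 in bone 3 and 0.40 in fibrous 5. It then ran through bone 2 (0.27), fibrous 4 (0.02), fibrous 1 (-0.06), bone 6 (-0.07), fibrous 3 (-0.14), fibrous 2 (-0.26), bone 1 (-0.37), fibrous 7 and fibrous 6 (both -0.46) to bone 5 (-0.71). Bone libraries stood at both ends of this order.

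The share of haemoglobin genes followed nearly the same order of libraries. The 3 Lin-named libraries had 35.3%, 27.9% and 19.97% of their counts in haemoglobin genes, and bone 5, fibrous 7 and fibrous 6 had the lowest shares, 0.128%, 0.754% and 1.38%. Fibrous 1 had the fourth highest share, 11.9%, with members near their means. Bone 5 also had the highest sums of neutrophil (92755), pan-leukocyte (4658) and plasma and B cell markers (9241 normalised CPM). The next highest were bone 2 for neutrophil (37936) and bone 3 for pan-leukocyte markers (1543), both with members above their means. The part of erythroid RNA or of these other cell types in this order was not tested.

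**Figure D2:**
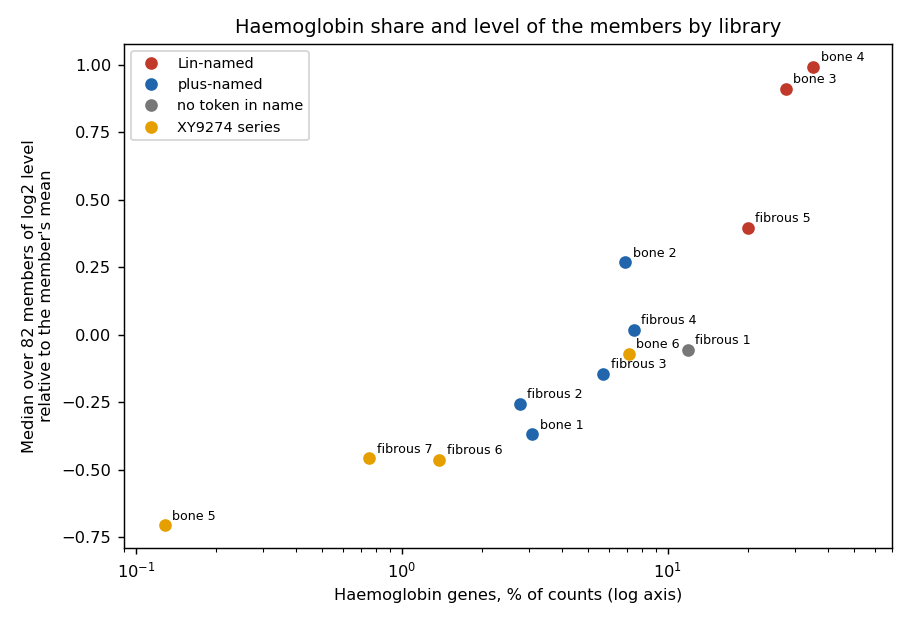
Share of counts in haemoglobin genes (horizontal, log axis, %) against the median over 82 members of the log2 level relative to each member's mean, 1 point per library. The point of bone 5 is at 0.128% and -0.71, and that of bone 4 at 35.3% and 0.99.

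Between fibrous tissue and bone, 0 of the 82 members tested passed an adjusted p of 0.05 (edgeR, with name series as a term). The background was 0.0%, since 0 of 13294 genes passed. At an unadjusted p under 0.05 were 11 members and 636 genes (4.78%), and DESeq2 called 0 members and 274 of 15927 genes (1.72%). Fold changes of fibrous over bone lay below 0 on the log2 scale for 77 of the 82 members, with a median of -0.42 beside 0.03 for all genes tested. By complex the medians were -0.45 (I), -0.26 (II), -0.38 (III), -0.45 (IV) and -0.42 (V). The summed level was 25335 ± 11025 normalised CPM (SD, n = 6) in bone and 20142 ± 4509 (n = 7) in fibrous libraries. No member had all fibrous libraries above all bone libraries (background 0.0527% of genes) or below them (background 0.015%).

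Single members show how wide the bone group was. Ndufv3, an accessory subunit of the NADH-oxidising arm of complex I, had the lowest unadjusted p of that complex. It ran from 66.8 through a median of 116 to 153 normalised CPM in bone and from 69.5 through 81.6 to 96.4 in fibrous libraries (log2 fold change -0.45, SE 0.16, adjusted p = 0.873 by edgeR). The ranges overlapped, with bone 6, at 66.8, below every fibrous library and bone 5, at 89.6, below fibrous 3. Cox7a2, a ubiquitous complex IV subunit, ran from 164 through 294 to 670.5 in bone and from 184 through 237 to 346 in fibrous libraries (log2 fold change -0.63, SE 0.29, adjusted p = 0.873). Sdha, the flavoprotein of succinate dehydrogenase, was among the 5 members above 0, with 371, 468 and 586 as lowest, median and highest in bone and 425, 523 and 692 in fibrous libraries (log2 fold change 0.19, SE 0.17, adjusted p = 0.891).

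These values below 0 depended largely on the Lin-named libraries, 2 of which are bone. Without all 3 of them, the median log2 fold change of the members was -0.09 and 24 of the 82 were above 0. The summed levels were then 18731 ± 5198 normalised CPM (n = 4) in bone and 18840.5 ± 3189 (n = 6) in fibrous libraries, a difference far within the spread. In the L002 series alone the median was -0.62, and in the XY9274 series alone -0.16. With scores of erythroid and pan-leukocyte markers as added terms it was -0.11. Without the 5 libraries low in Lepr, most members still lay below 0, mostly nearer to 0 than in the fit of all libraries. In all of these, 0 members were called.

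**Figure D3:**
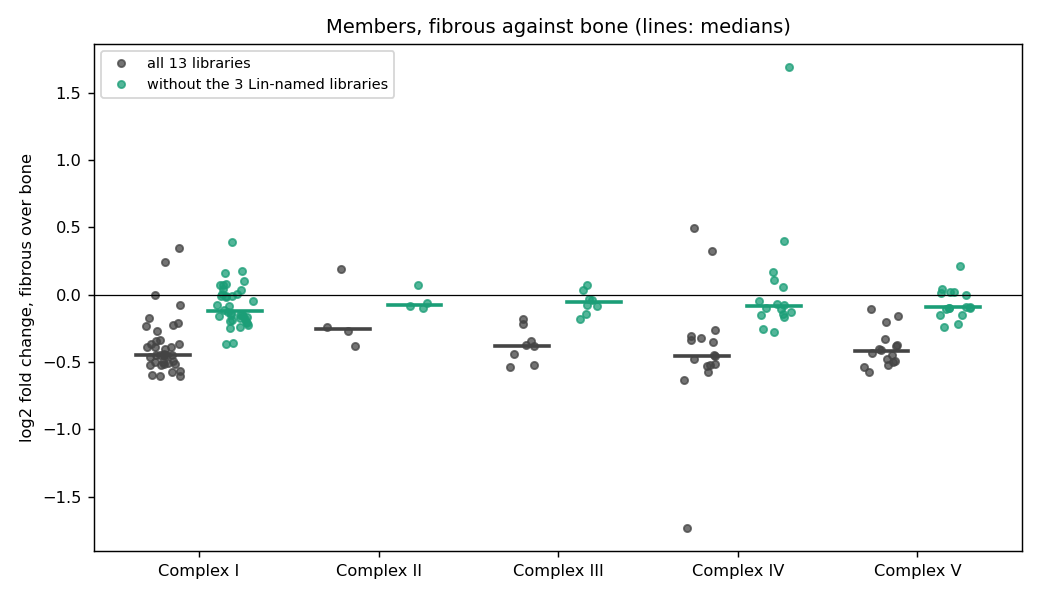
Log2 fold change of fibrous over bone for each member tested, by complex, in the fit of all 13 libraries (grey) and without the 3 Lin-named libraries (green), with horizontal lines at the medians. The lowest grey and the highest green point of complex IV are both Cox6a2, which had at most 4.45 normalised CPM in any library. Over all members the median is -0.42 in the first fit and -0.09 in the second. In the first fit the line of complex II, at -0.26, lies nearest to 0.

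The Lin-named libraries were set against the plus-named libraries of the same name series, with group as a term and fibrous 1 left out. Of 83 members tested, 23 passed an adjusted p of 0.05 (edgeR), 22 higher and Ndufa4l2 lower in the Lin-named libraries. Over all 13450 genes 8.16% passed, 3.15% higher and 5.0% lower. At an unadjusted p under 0.05 were 66 members and 27.7% of genes, and DESeq2 called 61 members and 26.9% of genes. The median log2 fold change of the members was 0.76 beside -0.21 for all genes, and 79 of the 83 were above 0. In 52 members all 3 Lin-named libraries lay above all 5 plus-named ones (background 12.2% of genes), and in Cox4i2, Ndufa10, Ndufa4l2 and Sdha they lay below (background 13.3%). The summed level was 35011 ± 6256 normalised CPM (n = 3) against 20419 ± 3248 (n = 5). The ratio of mean summed levels was 1.73 for complex I, 1.31 for II, 1.83 for III, 1.93 for IV and 1.65 for V.

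This count of calls changed when single libraries were left out and when terms were added. Such fits leave fewer residual degrees of freedom for every gene. The share of all genes called in each is not given here, so the lost calls are not a result particular to the members. It was 0 without bone 3, without bone 4 or without fibrous 3, 1 without fibrous 2, 3 without bone 2, 4 without bone 1 and 14 without fibrous 5, and the median stayed between 0.57 and 0.98 in these fits. With an erythroid marker score as a term, 0 members were called and the median was -0.04. With the name identifier as a block, which leaves 1 residual degree of freedom, 0 were called and the median was 0.64. Erythroid markers were higher in the Lin-named libraries for 7 of 9 genes tested, summing to 250584 to 612719 normalised CPM against 34543 to 87142. Plasma and B cell markers had 2 of 5 genes higher, Cd79a and Cd79b, and a median of 2.67. Their sums, 342 to 951 against 21.0 to 1053 normalised CPM, overlapped, and their part in the members' levels was not tested. LepR+ stromal markers were lower for 5 of 8, summing to 14.2 to 24.7 against 812 to 10757. The erythroid score was highest in the 3 Lin-named libraries of the 8, so that the token and the erythroid content cannot be told apart here.

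Scaling mattered too. As a plain share of counts, with haemoglobin in the total, the members took 2.46% to 2.74% in the Lin-named and 1.87% to 2.58% in the plus-named libraries, and the groups overlapped. As a share of the counts outside haemoglobin genes they took 3.14% to 3.80% against 1.93% to 2.77%, with no overlap. Without TMM factors 0 members were called higher and 4 lower (Cox4i2, Ndufa10, Ndufa4l2 and Sdha). The share of all genes called in that fit is not given here, so these counts cannot be read as particular to the members. The median of all genes then moved to -0.69 and that of the members to 0.27, so the members stood 0.96 above all genes, beside 0.98 with TMM factors.

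**Figure D4:**
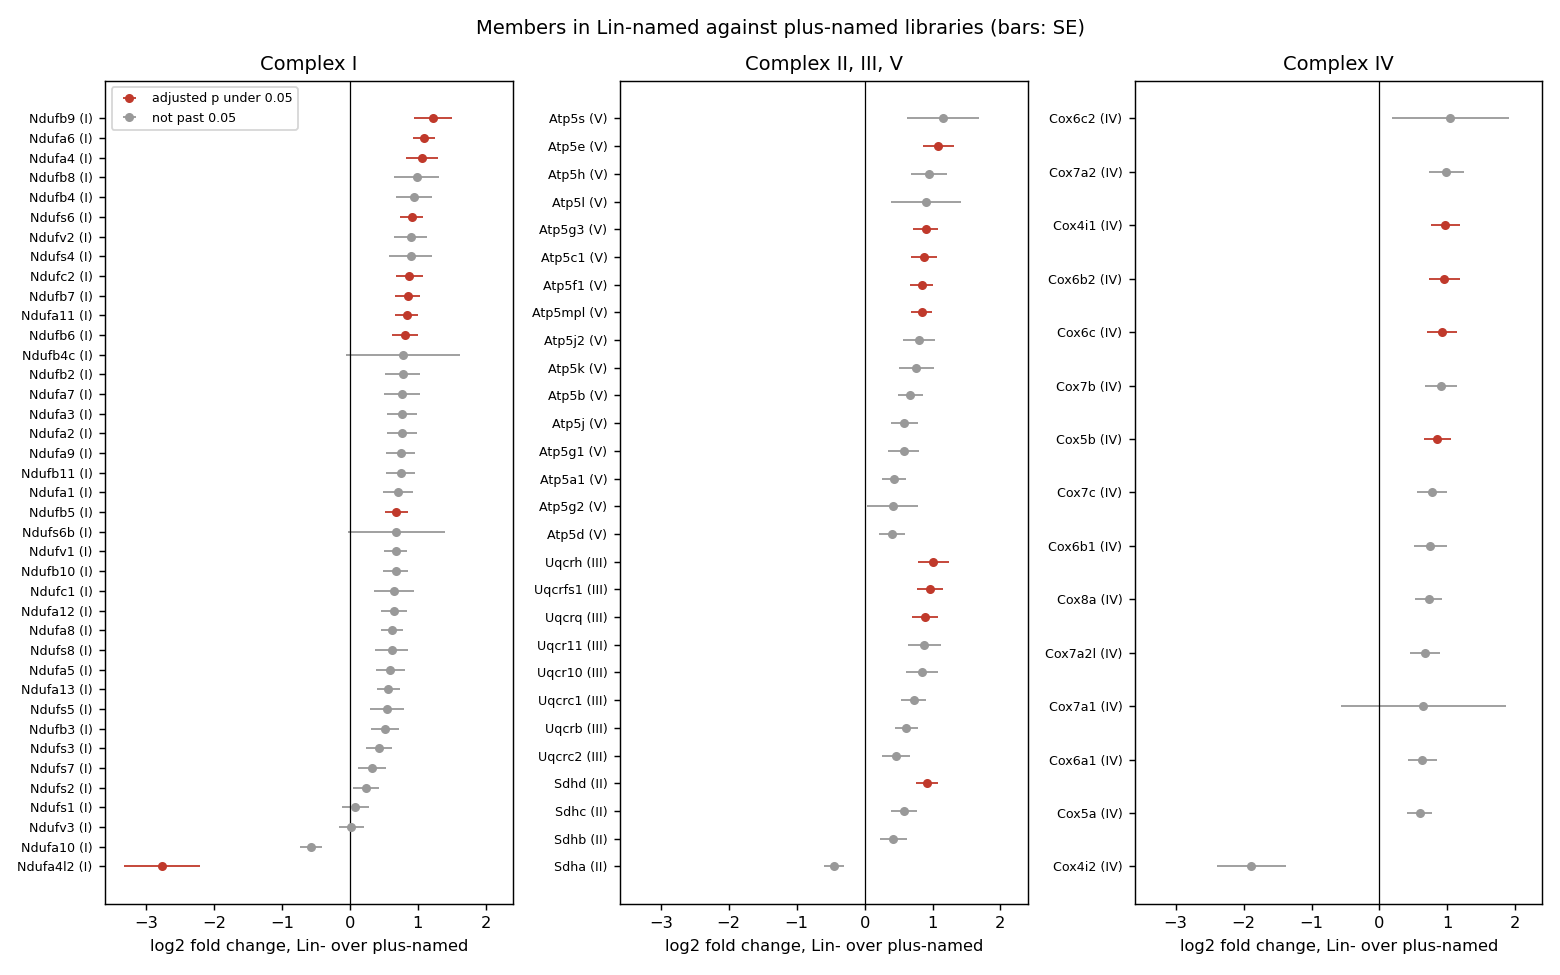
Log2 fold change of Lin-named over plus-named libraries (horizontal axis) with SE bars for 82 of the 83 members tested, by complex, those past an adjusted p of 0.05 in red. Cox6a2 is not drawn because its fold change rests on plus-named libraries at or near 0. Of the points, Ndufa4l2, Cox4i2, Ndufa10 and Sdha lie below 0 and the others above it.

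In complex I, 10 of 39 members tested passed, 9 of them higher in the Lin-named libraries, and the median log2 fold change was 0.71. Ndufa6 (ENSMUSG00000022450, chromosome 15, 82350140 to 82354322, minus strand, mm10), an accessory subunit of the LYR protein family, had the smallest adjusted p of all members. It was at 229.8, 233 and 140.2 normalised CPM in bone 3, bone 4 and fibrous 5 and at 81.9, 104, 79.4, 75.2 and 78.3 in bone 1, bone 2 and fibrous 2, 3 and 4. All 3 Lin-named libraries were above all 5 others (log2 fold change 1.10, SE 0.16, adjusted p = 0.0183). Ndufb9, another accessory subunit and the complex I member with the largest such change, was at 511, 545 and 295 against 124, 219.6, 147, 189 and 212 normalised CPM (log2 fold change 1.22, SE 0.28, adjusted p = 0.0412). Ndufs6, which carries zinc and overlaps Mrpl36 in the annotation, was at 341, 333 and 221 against 133, 179.8, 126, 131 and 152 (log2 fold change 0.91, SE 0.17, adjusted p = 0.0251).

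None of the 7 core subunits of complex I encoded in the nucleus, which carry its flavin and iron-sulphur clusters or bind ubiquinone, passed, where 8.16% of all genes did. At an unadjusted p under 0.05 were 3 of the 7, where 27.7% of all genes were, and their median log2 fold change was 0.43. A difference between core and accessory subunits was not tested. Ndufv2, a core subunit with an iron-sulphur cluster, was at 576, 596 and 371 normalised CPM in the Lin-named libraries and at 181, 315, 239, 283 and 287 in the plus-named ones (log2 fold change 0.90, SE 0.24, adjusted p = 0.0652). Ndufs1, the largest core subunit, was at 161, 195 and 202 against 140.1, 205, 148, 166 and 218 (log2 fold change 0.08, SE 0.19, adjusted p = 0.821). The values of Ndufs1 were fully mixed between the names while those of Ndufv2 were apart. Ndufa10, an accessory subunit related to nucleoside kinases, was at 115, 119 and 179.9 against 203, 196, 201, 201 and 236 (log2 fold change -0.57, SE 0.16, adjusted p = 0.0691).

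The subunits of complex II lay on both sides of 0. Sdhd (ENSMUSG00000000171, chromosome 9, 50596357 to 50603812, minus strand), a membrane anchor, rose and was at 837, 803 and 647 normalised CPM in bone 3, bone 4 and fibrous 5 and at 318, 466, 376, 350.2 and 398 in the plus-named libraries (log2 fold change 0.92, SE 0.16, adjusted p = 0.0236). Sdha (ENSMUSG00000021577, chromosome 13, 74322254 to 74350280, minus strand), the subunit that oxidises succinate, was at 386, 371 and 425 against 507, 489, 523, 532 and 692 (log2 fold change -0.45, SE 0.14, adjusted p = 0.0965). The Lin-named libraries were thus the 3 highest of the 13 for Sdhd and the 3 lowest for Sdha, although the 2 proteins sit in the same complex. The iron-sulphur subunit Sdhb and the other anchor Sdhc had log2 fold changes of 0.43 (SE 0.20, adjusted p = 0.205) and 0.58 (SE 0.19, adjusted p = 0.1). A difference between the fold changes of these 4 genes was not tested.

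In complex III, 3 of 8 members passed, all higher in the Lin-named libraries (median 0.86). Uqcrfs1, the Rieske iron-sulphur protein, was at 597, 606 and 418 normalised CPM in the Lin-named and at 255, 232, 252, 289.6 and 314 in the plus-named libraries (log2 fold change 0.97, SE 0.19, adjusted p = 0.0301). Uqcrh, the acidic hinge protein whose promoter is shown above, was at 609, 582 and 342 against 190.3, 299.7, 177, 200.2 and 263 (log2 fold change 1.01, SE 0.23, adjusted p = 0.0389). The third was Uqcrq (log2 fold change 0.89, adjusted p = 0.0377). For Uqcrc2, a core protein, bone 2 at 309.7 reached the Lin-named range of 308 to 322 (log2 fold change 0.46, SE 0.21, adjusted p = 0.193).

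In complex IV, 4 of 16 members passed, Cox4i1, Cox5b, Cox6b2 and Cox6c, all higher in the Lin-named libraries (median 0.81). Cox4i1 (ENSMUSG00000031818, chromosome 8, 120668222 to 120674207, plus strand), the ubiquitous form of subunit 4, was at 1278, 1331 and 747 normalised CPM against 424, 658, 447, 474 and 556 (log2 fold change 0.97, SE 0.21, adjusted p = 0.0375). It overlaps Emc8 in the annotation. Cox6b2, known as the testis form of subunit 6b, was at 147, 198 and 127 against 69.5, 85.6, 55.9, 82.7 and 89.1 (log2 fold change 0.96, SE 0.23, adjusted p = 0.0446). Per kilobase Cox6b2 made up 8.21% to 18.6% of the sum of Cox6b1 and Cox6b2 over the 13 libraries, 10.97% to 14.3% in the Lin-named and 9.64% to 14.1% in the plus-named ones, so this share overlapped.

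In complex V, 5 of 16 members passed, Atp5c1, Atp5e, Atp5f1, Atp5g3 and Atp5mpl, all higher in the Lin-named libraries (median 0.82). Atp5e, the epsilon subunit of the F1 stalk, was at 481, 446 and 284 normalised CPM against 132, 220.2, 166, 164 and 193 (log2 fold change 1.09, SE 0.22, adjusted p = 0.0334). Atp5g3, which encodes the c-ring subunit, was at 998, 1086 and 753 against 379, 552, 466, 489 and 551 (log2 fold change 0.90, SE 0.19, adjusted p = 0.0349). The 3 c-ring genes encode the same mature protein. Per kilobase Atp5g3 gave 73.4% to 82.7% of their sum over the 13 libraries, with 80.4% to 81.5% in the Lin-named and 73.4% to 79.2% in the plus-named libraries. The abundant catalytic subunit Atp5b, at 4739.9, 5479 and 4459.7 against 2547, 3087, 2726, 3155 and 3737, did not pass (log2 fold change 0.67, SE 0.18, adjusted p = 0.0631).

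The 2 members known as low-oxygen forms had log2 fold changes below 0. Ndufa4l2 (ENSMUSG00000040280, chromosome 10, 127514967 to 127517154, plus strand), a hypoxia-induced relative of Ndufa4, was at 16.2, 6.82 and 14.4 normalised CPM in the Lin-named libraries and at 123, 135, 67.2, 66.0 and 24.8 in the plus-named ones. It was the single member called lower by edgeR (log2 fold change -2.76, SE 0.56, adjusted p = 0.0326). In the other libraries it was at 12.8 in bone 5, 0.0612 in bone 6, 24.6 in fibrous 1, 51.5 in fibrous 6 and 107 in fibrous 7. Ndufa4, a subunit by symbol of complex I that is known to associate with complex IV, rose, from 253, 400.1, 226, 292 and 355 in the plus-named to 859, 825 and 471 in the Lin-named libraries (log2 fold change 1.06, SE 0.24, adjusted p = 0.0399). Per kilobase, Ndufa4l2 was 1.03% to 3.72% of the sum of both genes in the Lin-named libraries and 8.09% to 38.1% in the plus-named ones. Ndufa4l2 overlaps Shmt2 in the annotation.

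Ndufa4l2 lost its call without bone 1, bone 2, bone 3, bone 4, fibrous 2 or fibrous 3, where its adjusted p was between 0.0604 and 0.101 and its log2 fold change between -2.78 and -2.36. It also lost its call by limma voom (adjusted p = 0.0776), with fibrous 1 added (0.057), with a pan-leukocyte score (0.0625) and with the name identifier as a block (0.216), at log2 fold changes between -3.26 and -2.55. With an erythroid score as a term its log2 fold change was -0.53 (adjusted p = 1). Chondrocyte and LepR+ stromal markers, like Ndufa4l2, were lower in the Lin-named libraries (5 of 6 and 5 of 8 genes called lower), and their part in its level was not tested.

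Cox4i2 (ENSMUSG00000009876, chromosome 2, 152754173 to 152765037, plus strand), the form of subunit 4 known from lung and low oxygen, was at 5.61, 5.42 and 3.45 normalised CPM in the Lin-named and at 17.6, 26.6, 13.9, 10.1 and 9.29 in the plus-named libraries. The groups did not overlap, and it missed the threshold (log2 fold change -1.89, SE 0.51, adjusted p = 0.061). Per kilobase it made up 0.794% to 0.899% of the sum of Cox4i1 and Cox4i2 in the Lin-named and 3.18% to 7.54% in the plus-named libraries. The share was highest in fibrous 7, at 11.6%, and bone 6 had 0 counts of Cox4i2. Between fibrous tissue and bone neither low-oxygen form was called, with log2 fold changes of 0.24 (SE 1.17) for Ndufa4l2 and 0.33 (SE 1.12) for Cox4i2 (adjusted p = 0.98 and 0.971).

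**Figure D5:**
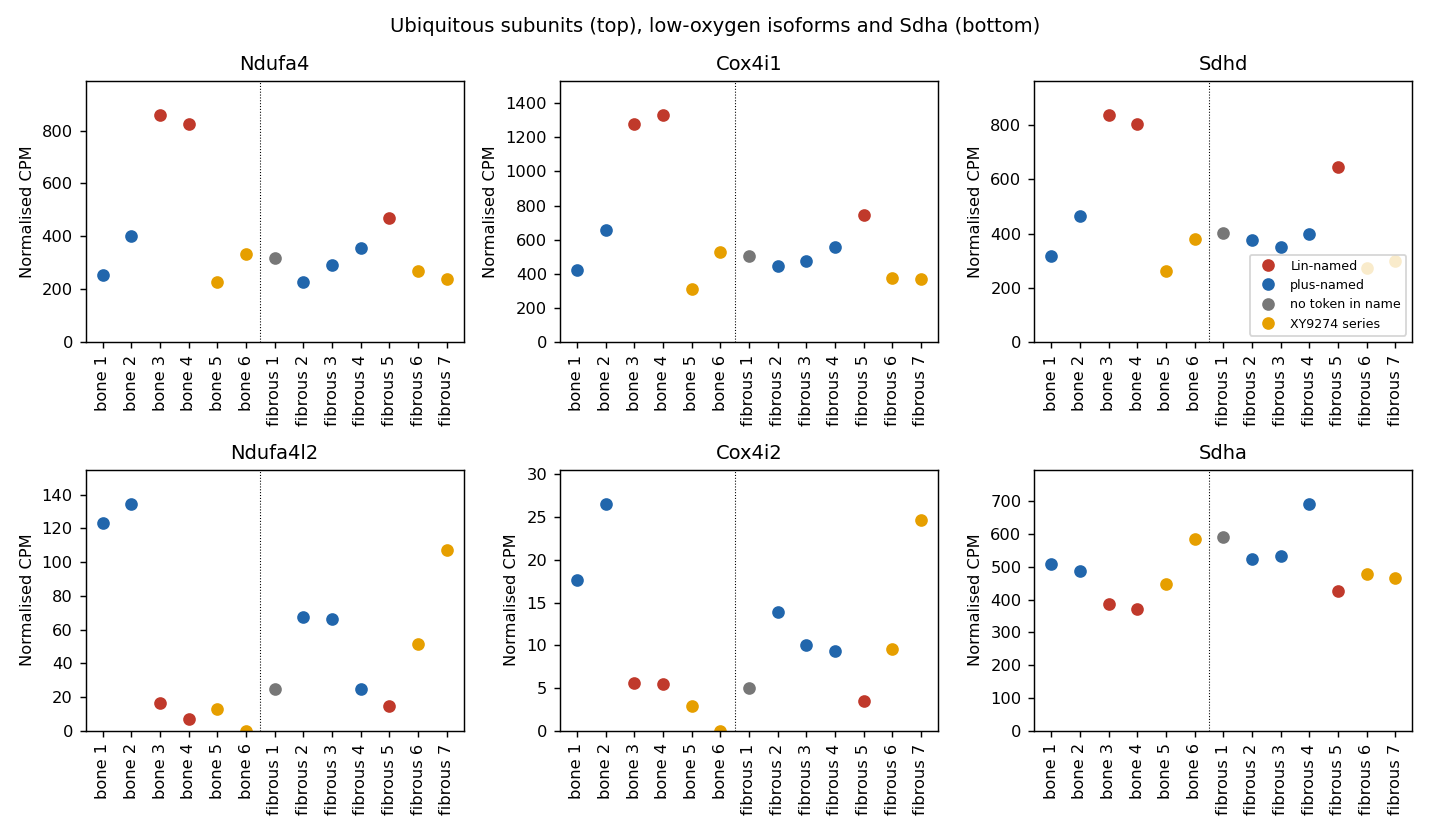
Normalised CPM (vertical axes, from 0) of Ndufa4, Cox4i1 and Sdhd (top) and of Ndufa4l2, Cox4i2 and Sdha (bottom) in the 13 libraries, coloured by library name, with a dotted line between bone and fibrous libraries. The 3 Lin-named libraries are the highest in each top panel. For Sdha they are the lowest of the 13, while for Ndufa4l2 and Cox4i2 they are below all plus-named libraries, with bone 6 lowest.

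Muscle forms were close to absent. Cox8b had 0 counts in 11 libraries and 5 and 6 counts in fibrous 1 and fibrous 7, and Cox7a1 did not exceed 1.17 normalised CPM. Cox6a2 was at 4.45, 2.71 and 1.05 normalised CPM in the Lin-named libraries and at 0, 0, 0.093, 0 and 0.203 in the plus-named ones, and it was at 4.16 in bone 5. It overlaps the integrin gene Itgad, and it was not called between the names (adjusted p = 0.0915). Of the muscle markers, the actin Acta1 reached 37.7 normalised CPM in fibrous 5, the library with the highest Cox7a1, and was at most 3.27 elsewhere. Mylpf, a myosin light chain of fast muscle, was at 63.3, 60.4 and 66.4 in the Lin-named and at 16.4 to 44.8 in the plus-named libraries, and it did not pass (log2 fold change 0.80, SE 0.32, adjusted p = 0.159).

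Pairs of libraries with a shared identifier in their names gave the same direction. In bone 4 (Lin, identifier 4) 76 of 83 members were higher than in bone 2 (plus, identifier 4), by a median of 0.69 on the log2 scale, where 45.2% of all genes were higher. In fibrous 5 (Lin, identifier A) 78 of 83 were higher than in fibrous 2 (plus, identifier A), by a median of 0.66, where 45.9% of all genes were higher. The labels do not say whether such a pair came from the same animal, and these pairs are part of the comparison above.

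The members were also split by coding length. The 11 members with a coding sequence of at least 900 bases, among them Sdha, Ndufa10, Ndufs1, Atp5a1 and Uqcrc2, had a median log2 fold change of 0.43 between Lin-named and plus-named libraries, and 0 were called. The 69 shorter ones had a median of 0.78, and all 23 calls were among them. All genes tested showed a split in medians as well. Of 8633 longer genes 698 were called, with a median of -0.57. Of 3394 shorter genes 371 were called, with a median of 0.32. Against that share of longer genes, 0 of 11 members is near the background, and a difference between longer and shorter members was not tested. The length of 900 bases was chosen after the values were seen, and the part of transcript length or RNA quality in the members' differences was not tested.

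Lists of genes that serve the chain without being members of it are given beside the 8.16% of all genes called and the 27.7% at an unadjusted p under 0.05. Of the assembly factors of complexes I to V, 0 of 15, 0 of 4, 0 of 6, 1 of 20 and 0 of 4 passed between Lin-named and plus-named libraries, with medians of 0.046, -0.093, 0.32, 0.54 and 0.68. At an unadjusted p under 0.05 were 1, 2, 0, 6 and 2 of them. The factor that passed was Cmc2, a copper-related assembly factor of complex IV (log2 fold change 0.78, SE 0.19, adjusted p = 0.0453). Of 8 chain components outside the symbol rule, Cyc1, the cytochrome c1 of complex III, passed (log2 fold change 0.64, SE 0.15, adjusted p = 0.0389). The enzymes of the citrate cycle and pyruvate dehydrogenase, which feed the chain, had 0 of 16 called, 3 at an unadjusted p under 0.05 and a median of 0.075. Of 14 glycolysis genes, 3 were lower, Pkm (-1.60), Tpi1 (-0.79) and Eno1 (-1.11 on the log2 scale), with a median of -0.95 over the list.

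Lists of protein synthesis genes had medians closer to that of the members. Mitochondrial ribosomal proteins had 9 of 77 called, all higher, with a median of 0.48. Cytosolic ribosomal proteins had 17 called higher and 1 lower of 86, with a median of 0.80, close to the 0.76 of the respiratory chain. For fibrous over bone the medians were -0.26 and -0.48 for these lists, beside -0.42 for the members.

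The list of regulators mixed factors of nuclear genes, such as Nrf1, with factors of mitochondrial DNA, such as Tfam and Polg. It showed no call, 0 of 13, with 2 at an unadjusted p under 0.05 and a median of -0.35. Tfam, which packages and transcribes mitochondrial DNA, was at 83.3, 60.4 and 85.2 normalised CPM in the Lin-named and at 30.4, 47.8, 55.6, 47.1 and 49.1 in the plus-named libraries (log2 fold change 0.80, SE 0.23, adjusted p = 0.0696). Pprc1, a relative of PGC-1 alpha, and Polg, the mitochondrial DNA polymerase, had log2 fold changes below 0, -1.17 (SE 0.38, adjusted p = 0.103) and -1.01 (SE 0.46, adjusted p = 0.202). Nrf1 had a log2 fold change of 0.01 (SE 0.34), Gabpa -0.62 (SE 0.95) and Esrra -0.51 (SE 1.56). Ppargc1a, the coactivator PGC-1 alpha, was too low to test, with at most 0.323 normalised CPM. Gabpa shares a locus with the member Atp5j, whose own log2 fold change was 0.59 (SE 0.20, adjusted p = 0.113).

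Between the XY9274 and L002 series of names 0 of 82 members were called by edgeR, beside 287 of 13294 genes (2.16%). The median log2 fold change of the members was -0.67, beside 0.05 for all genes, and 78 were below 0. At an unadjusted p under 0.05 were 58 members and 22.4% of genes. DESeq2 called 26 members, all lower in the XY9274 libraries, beside 15.1% of genes, and limma voom called 30, beside 22.2% of genes. The summed level was 16116 ± 3699 normalised CPM (n = 4) in the XY9274 and 25393 ± 8198 (n = 9) in the L002 libraries. Ndufb4c, a copy of Ndufb4 with at most 2.01 normalised CPM, was the only member with every XY9274 library below every L002 library (background 1.45%). Without the Lin-named libraries the median was -0.37 and 0 members were called, without bone 1 edgeR called 8, and with an erythroid score the median was -0.10. Erythroid markers had a median of -2.64 in the same comparison, with 0 of 9 called. Neutrophil and pan-leukocyte markers had medians of 1.39 and 1.40, with 0 of 8 and 0 of 6 called, and their part was not tested.

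The fibrous-bone difference was then tested for a difference between the name series. For this interaction 0 of 82 members and 0 of 13294 genes (0.0%) passed, and 1 member, Ndufb4c, had an unadjusted p under 0.05, beside 2.2% of genes. DESeq2 called 0 members and 0.422% of genes. The median interaction was 0.46 beside -0.09 for all genes, with 71 members above 0.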

How the data were processed

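The authors deposited raw counts per gene for 13 libraries in a single table, and the counts were used as deposited. The submitters' processing notes list edgeR, mm10 and hg38 without saying what each was used for. The sources used here do not give the aligner, the counting tool or the use of strand. Gene symbols, coordinates and exon lengths came from GENCODE M21 (mm10), and all 23211 IDs matched. Promoter windows came from RefSeq (GRCm38.p6).

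Tests were edgeR 4.0.16 in R 4.3.3 (TMM factors, filterByExpr, robust quasi-likelihood F test), adjusted by Benjamini-Hochberg over all genes tested at 0.05. They were also run on simulated counts that did not carry the differences in cell content between these libraries. The outcome is not given here, and it would not show how the tests behave under such differences. The fits were fibrous against bone with name series as a term, Lin-named against plus-named libraries with group as a term, the name series, and their interaction. SE was derived from each log2 fold change and its F statistic (absolute change over root F). Normalised CPM are edgeR's CPM on TMM-scaled library sizes. Marker scores are mean log2 CPM with a prior count of 2. DESeq2 1.42.0, limma 3.58.1 (voom with quality weights), other scalings, filters, sets of libraries and leaving out each library were alternatives; fits without TMM factors, fits with the erythroid score alone and the series fit without Lin-named libraries were added after seeing the data.

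The members and gene lists were chosen with earlier results of these data known. Named were the succinate dehydrogenase subunits, members with isoform pairs, the 3 members of each complex with the smallest p for fibrous against bone and for Lin against plus names, the highest and lowest per kilobase of each complex, and up to 3 genes of each other list, with 5 regulators. Ndufb9, Ndufa10, Ndufs1, Ndufv2, Atp5c1, Atp5a1, Pprc1 and Polg were named after their values were seen. So were Mylpf, Tnnt3, Tnni2, Cd79a, Cd79b and the 8 YY1 sites. Replicate numbers follow accession order and pair nothing. Some Lin and plus names share an identifier, and deviations of the sharing libraries correlated by 0.0471 and 0.0798. Lin and plus libraries without a shared identifier ran from -0.158 to 0.112, so these values cannot tell whether a pair shared an animal.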

Additional observations from a re-analysis of the deposited data

How the results depend on the processing

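Depth limited only the rarest members: Cox8b, Cox7a1, Cox6a2 and the copies had few counts, and their fold changes carry large errors. For fibrous against bone, members called stayed at 0 in every alternative run. For Lin-named against plus-named libraries (23 called), it was 9 with no filter, 4 without TMM factors, 61 by DESeq2, 49 with no group term, 12 with fibrous 1 added, 1 with a pan-leukocyte score, 0 with an erythroid score and 0 with the replicate block, and leaving out each library gave 0 to 24. The median was 0.27 without TMM factors and -0.041 with the erythroid score. Over all 13450 genes DESeq2 called 26.9% and edgeR 8.16%. For XY9274 against L002 (0 called), DESeq2 called 26, limma voom 30, and leaving out each library gave 0 to 8; the median was -0.10 with the erythroid score. The share of all genes called in the other Lin and plus fits is not given here. The cause of these changes was not tested. The replicate block is the fit with the name identifier as a block. It rests on 2 shared name identifiers, 4 and A, so names alone join those libraries. A call lost under it is not a smaller effect. Other scalings and filters kept counts within 1.5 times.

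Single members reversed sign as follows. For fibrous against bone these were, without TMM factors, Cox6b2 0.0025 and Atp5b 0.047; and, leaving out each library, Ndufb4c ran from -0.75 to 0.0067, Cox4i2 from -0.21 to 0.82 and Ndufa4l2 from -0.31 to 0.75, with the reversals without bone 4 for the first and without bone 5 or bone 6 for the others. In L002 alone they were Cox4i2 -0.75 and Ndufa4l2 -0.85, and in XY9274 alone Sdha -0.19, Uqcrq 0.0059 and Uqcr11 0.020. Without Lin-named libraries they were Cox6a2 1.69, Cox6b2 0.11, Cox7a1 -0.25, Atp5g3 0.040, Ndufb4c 0.39, Uqcrfs1 0.072, Cox5b 0.060 and Atp5b 0.014. Without the 5 libraries low in Lepr they were Cox6a2 2.01, Ndufa4l2 -0.083 and Ndufb4c 0.14, and with both marker scores Cox6a2 0.013, Uqcrc2 0.0072 and Atp5l 0.051.

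For Lin-named against plus-named libraries, Ndufv3 was at -0.012 with no filter, -0.45 without TMM factors, -0.030 by limma voom, -0.051 with the replicate block and -0.035 with a pan-leukocyte score. Leaving out each library it ran from -0.11 (without bone 1) to 0.17, and Cox7a1 ran from -1.24 (without fibrous 5) to 1.24. Without TMM factors Sdhb was at -0.055, Atp5g2 at -0.061 and Uqcrc2 at -0.0040. With the erythroid score the values, called members included, were Sdhb -0.040, Cox6a1 -0.38, Cox6b1 -0.26, Cox6b2 -0.17, Cox7a1 -1.19, Cox7a2 -0.18, Cox7a2l -0.12, Cox7b -0.037, Cox8a -0.0013, Ndufa4 -0.10, Atp5g1 -0.37, Atp5g2 -0.44, Ndufv3 -0.41, Ndufb3 -0.24, Ndufa1 -0.058, Uqcrh -0.0073, Uqcr11 -0.081, Cox5b -0.018, Cox6c -0.015, Atp5j -0.17, Atp5k -0.27 and Atp5b -0.097.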
